A study of Mus musculus with 6 samples.

Results

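The genes of osteoblasts and osteocytes, the cells that make and maintain bone, were followed in cochlear tissue of *Cmah*-null and WT mice. The 10 genes were *Bglap1*, *Ibsp*, *Spp1*, *Runx2*, *Sp7*, *Alpl*, *Phex*, *Dmp1*, *Mepe* and *Sost*, and every probe carrying one of these symbols on the array was taken. By symbol 9 of the 10 genes were found, with 13 probes out of the 25697 on the array. *Alpl* had no probe of that name, but a probe listed as *Akp2* carries the same Entrez gene ID and is described beside the others, outside the counts of genes. No probe of the 25697 differed between genotypes at an adjusted p under 0.05 in limma, and so none of these 9 genes did. The brightest *Bglap1* probe had a log2 fold change (*Cmah*-null minus WT) of -1.16 and *Spp1* one of -0.79, both with intervals that included 0. Among the WT mice alone, *Bglap1* ranged over 6.55-fold.

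*Cmah* encodes the enzyme that hydroxylates CMP-Neu5Ac to CMP-Neu5Gc. RNA came from cochlear tissue of 3 WT mice and 3 *Cmah*-null mice, and both groups were C57BL/6 (C57BL/6J in the study's methods) and 12 months old, with 1 Illumina MouseRef-8 v2 array per sample. The mutants carried the *Cmah* tm1Ykoz knockout allele. The sources do not state the sex of the mice, and the p-values measure the spread between these samples. In the deposited tables the columns of the *Cmah*-null samples are named "old", and they were matched to the samples by group and number.

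Between 13873 and 15223 probes were detected on an array (detection p under 0.05), and 12410 on all 6. The arrays of *Cmah*-null replicates 1 and 2 were nearly alike (SD of their log2 difference 0.13, against 0.31 to 0.64 in other pairs), and *Cmah*-null replicate 3 stood apart, at 0.56 to 0.64 from every other array. The *Cmah* probe (ILMN_2606825) had log2 signals of 7.27, 7.28 and 7.87 for WT replicates 1 to 3 and 7.95, 7.98 and 7.27 for the mutant replicates. Only WT replicate 3 and *Cmah*-null replicates 1 and 2 passed detection, and at that level the probe gives no check of genotype. By the SD of the log2 difference, WT replicate 3 was 0.32 from each of these 2 mutant arrays. It was 0.31 from WT replicate 2 and 0.44 from WT replicate 1. Of 12 cochlear markers found, 7 were detected on all 6 arrays, among them *Coch* and *Gjb2*, while the hair cell motor gene *Slc26a5* and the matrix genes *Otor* and *Tectb* were detected on none. All 8 skeletal muscle markers and all 9 neutrophil and marrow markers found were detected on all 6 arrays.

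Bone forms in steps that these genes follow. RUNX2 and then SP7 (osterix) commit a precursor to the osteoblast lineage. Osteoblasts lay down type I collagen and add the matrix proteins osteocalcin, bone sialoprotein and osteopontin, while alkaline phosphatase removes pyrophosphate and frees phosphate for mineral. Cells that become buried in the matrix turn into osteocytes, which make the phosphate regulators PHEX, DMP1 and MEPE and the Wnt inhibitor sclerostin. In the ear these cells belong to the bony capsule that encloses the cochlea. In whole tissue, fewer cells of a type and less RNA per cell cannot be told apart.

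The probe sequences are shown first for osteocalcin, because mice carry neighbouring copies of its gene that are close in sequence, and a probe can also bind the transcript of a sister copy. In the first pair below, capitals mark the 37 bases that both *Bglap1* probes share, so their signals are not independent measurements. All 3 lie on the minus strand of chromosome 3, band 3qF1, in the coordinates of the deposited annotation, whose build is not given in the sources used here.
*Bglap1* ILMN_3101908, chr3:88188306-88188355: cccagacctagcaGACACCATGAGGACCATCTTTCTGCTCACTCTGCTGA
*Bglap1* ILMN_2610166, chr3:88188293-88188342: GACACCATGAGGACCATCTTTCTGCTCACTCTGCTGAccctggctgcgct
*Bglap2* ILMN_2944508, chr3:88181830-88181879: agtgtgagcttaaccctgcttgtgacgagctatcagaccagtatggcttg

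*Dmp1*, *Ibsp*, *Mepe* and *Spp1* form a cluster of related matrix genes, and their probes lay within 227 kb of one another in band 5qE5 of chromosome 5. The *Mepe* probe is printed because *Mepe* was the 1 gene detected on all arrays with a log2 fold change above 0 by its brightest probe. A *Runx2* probe is printed because both *Runx2* probes gave no detected signal, and the deposited annotation places them in band 17qB3 with no coordinates.
*Mepe* ILMN_1222230, chr5:104767197-104767246, plus strand: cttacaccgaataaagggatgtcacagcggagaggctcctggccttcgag
*Runx2* ILMN_1220130: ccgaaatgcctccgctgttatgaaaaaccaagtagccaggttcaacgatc

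Among the matrix genes, *Bglap1* encodes osteocalcin, a small protein that binds mineral and is made by mature osteoblasts. Its brightest probe (ILMN_2610166) gave log2 signals of 13.85, 14.67 and 11.96 in WT and 12.55, 12.65 and 11.81 in *Cmah*-null mice. WT replicates 1 and 2 were above every *Cmah*-null array, while WT replicate 3 was below *Cmah*-null replicates 1 and 2, so the groups overlapped. The group means were 13.49 ± 1.39 for WT and 12.33 ± 0.46 for *Cmah*-null mice (log2 signal ± SD, n = 3 each). The log2 fold change was -1.16 (standard error, SE, 0.70, 95% interval -2.89 to 0.57, limma adjusted p 0.692). Within the WT group alone the highest and lowest arrays were 6.55-fold apart, more than the 2.23-fold difference between the group means. Without WT replicate 3 the log2 fold change was -1.93 (adjusted p 0.290 in limma), and without WT replicate 2 it was -0.57.

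The other osteocalcin probes showed the same order of arrays at the top. The second *Bglap1* probe (ILMN_3101908), which overlaps the first, gave 13.00, 14.14 and 11.09 in WT and 11.49, 11.71 and 11.03 in *Cmah*-null mice. The dimmest *Bglap1* probe (ILMN_3028702) gave 8.56, 9.87 and 7.70 in WT and 8.10, 7.83 and 7.93 in *Cmah*-null mice. On both, WT replicates 1 and 2 were again above every *Cmah*-null array. *Bglap2* gave 15.48, 15.86 and 13.93 in WT and 14.45, 14.44 and 14.05 in *Cmah*-null mice. In 4 of 4 osteocalcin probes WT replicate 2 was highest and WT replicate 1 next. The log2 fold changes of the 4 probes ran from -1.33 to -0.75, with adjusted p-values of 0.677 or more in limma, and all stayed below 0 with each array scaled to 1 common median. The SD among WT arrays was 1.02 to 1.54, against 0.14 to 0.46 among *Cmah*-null arrays. Because *Cmah*-null replicates 1 and 2 were nearly alike over the whole array, the latter may understate the spread between mice. A difference in spread between genotypes was not tested.

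**Figure D1:**
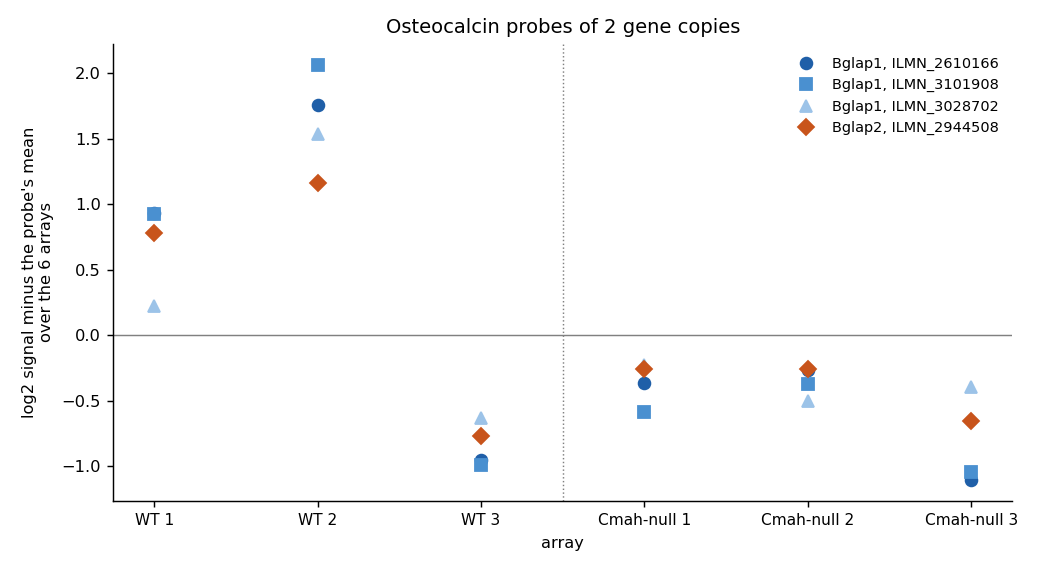
Log2 signal of the 4 osteocalcin probes on each of the 6 arrays, less the mean of that probe over the arrays, with 1 symbol per probe and a dotted line between WT and *Cmah*-null arrays. WT replicates 1 and 2 are highest for each probe, while WT replicate 3 lies among or below the *Cmah*-null arrays.

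*Spp1* encodes osteopontin, a phosphoprotein of bone matrix that macrophages, epithelia and other cells also make. Its probe (ILMN_2690603, chr5:104869835-104869884) gave 13.22, 14.25 and 14.39 in WT and 13.31, 13.35 and 12.83 in *Cmah*-null mice. WT replicates 2 and 3 were above every *Cmah*-null array, and WT replicate 1 was below *Cmah*-null replicates 1 and 2. The group means were 13.95 ± 0.64 for WT and 13.17 ± 0.29 for *Cmah*-null mice (log2 signal ± SD, n = 3 each). Its difference between genotypes was -0.79 (SE 0.34, 95% interval -1.63 to 0.06, limma adjusted p 0.603), the lowest adjusted p among the 13 probes. Without WT replicate 1 it was -1.15 (adjusted p 0.224 in limma). The low WT array thus differed between these genes, being replicate 3 for *Bglap1* and replicate 1 for *Spp1*.

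*Ibsp* encodes bone sialoprotein, which nucleates mineral in new bone. Its brighter probe (ILMN_3141106, chr5:104739709-104739758) gave 10.76, 11.15 and 10.60 in WT and 10.70, 10.88 and 10.55 in *Cmah*-null mice. These values lay close together, and the groups overlapped throughout. The group means were 10.83 ± 0.28 for WT and 10.71 ± 0.17 for *Cmah*-null mice (log2 signal ± SD, n = 3 each). The log2 fold change was -0.13 (SE 0.17, 95% interval -0.54 to 0.29, limma adjusted p 0.856), and a second probe had 0.091 (SE 0.18). *Ibsp* had the narrowest interval of the listed genes detected on all arrays.

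**Figure D2:**
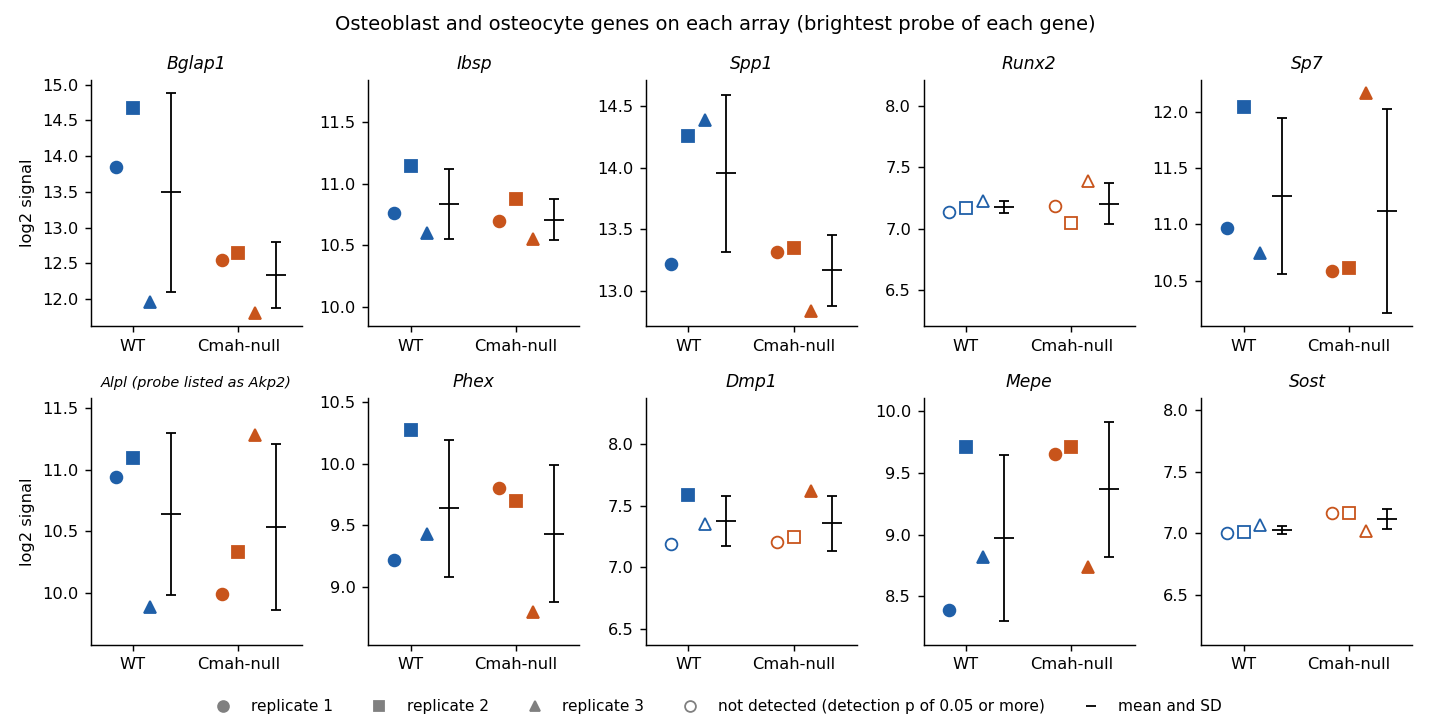
Log2 signal of the brightest probe of each gene on each array (WT in blue, *Cmah*-null in orange, replicate number by symbol, open symbols not detected), with the group mean and SD as black bars. Each panel has its own axis, and in all 10 panels the groups overlap.

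Of the transcription factors, *Runx2*, the master regulator of the lineage, was not detected on any array by either probe. Its signals were 7.05 to 7.39 over the 6 arrays and 2 probes, within background, so no fold is given. *Sp7*, the factor that acts downstream of RUNX2, was detected on all 6 arrays. Its probe (ILMN_2733114, chr15:102184780-102184829) gave 10.97, 12.04 and 10.75 in WT and 10.59, 10.61 and 12.17 in *Cmah*-null mice. The 2 highest values came from different genotypes, WT replicate 2 and *Cmah*-null replicate 3, and the other 4 arrays lay lower. The group means were 11.25 ± 0.69 for WT and 11.12 ± 0.91 for *Cmah*-null mice (log2 signal ± SD, n = 3 each). The difference between the means was -0.13 (SE 0.55, 95% interval -1.48 to 1.23, limma adjusted p 0.962). Without *Cmah*-null replicate 3 it was -0.65, and without WT replicate 2 it was 0.27.

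Of the genes that govern mineral and phosphate, *Alpl* encodes tissue-nonspecific alkaline phosphatase. Its probe (ILMN_2661287, chr4:137297902-137297951, listed as *Akp2*) gave 10.94, 11.10 and 9.89 in WT and 9.99, 10.33 and 11.29 in *Cmah*-null mice. As for *Sp7*, *Cmah*-null replicate 3 was the highest array and the other *Cmah*-null arrays lay below WT replicates 1 and 2. The log2 fold change was -0.11 (SE 0.45, 95% interval -1.23 to 1.01, limma adjusted p 0.962).

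*Phex* encodes an endopeptidase of osteocytes whose loss causes phosphate wasting. Its probe (ILMN_1243830, chrX:153596966-153597015) gave 9.22, 10.27 and 9.43 in WT and 9.80, 9.70 and 8.79 in *Cmah*-null mice. The highest and the lowest array belonged to different groups, and the 4 between them were mixed. The fitted difference was -0.21 (SE 0.38, limma adjusted p 0.900). *Mepe*, a matrix phosphoglycoprotein that restrains mineralization, gave 8.39, 9.71 and 8.82 in WT and 9.65, 9.72 and 8.74 in *Cmah*-null mice. Here WT replicate 2 sat with *Cmah*-null replicates 1 and 2, and the other 3 arrays were lower. The log2 fold change was 0.40 (SE 0.42, 95% interval -0.64 to 1.43, limma adjusted p 0.812).

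*Dmp1*, a matrix protein that osteocytes need to mature, was detected on 2 arrays only, WT replicate 2 and *Cmah*-null replicate 3. It gave 7.19, 7.59 and 7.35 in WT and 7.21, 7.25 and 7.62 in *Cmah*-null mice. The pair of arrays that detected *Dmp1* was also the highest pair for *Sp7*. *Sost*, which encodes sclerostin, was not detected on any array, with signals of 7.00 to 7.16. The list thus had 6 of 9 genes detected on all 6 arrays, namely *Bglap1*, *Ibsp*, *Sp7*, *Phex*, *Spp1* and *Mepe*.

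Counted together, 0 of the 9 genes passed an adjusted p under 0.05, where 0.00% of all probes did so in limma. At 1.5-fold with an unadjusted p under 0.05, 0 of the 9 genes passed, where 2.71% of all probes did. These are the fold and p cut-offs of the study, but p came from limma here, not from the authors' own comparison. By unadjusted p alone 0 of the 13 probes passed, where 8.56% of all probes did. The groups overlapped for all 9 genes, while they did not overlap for 16.4% of all probes. The median log2 fold change of the 9 genes was -0.13, with 6 of 9 below 0, and that of all probes was 0.0020. These counts include *Dmp1*, *Runx2* and *Sost*, whose signs are not measured directions. The 6 genes detected on all arrays had a median of -0.17, with 5 of 6 below 0, and all probes detected on all arrays had one of 0.026. With arrays scaled to the same median and no quantile step, the latter moved to 0.30, and *Ibsp* (0.34), *Sp7* (0.37), *Phex* (0.15) and *Alpl* (0.34) turned positive, while *Bglap1* (-0.70) and *Spp1* (-0.28) stayed below 0.

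The detected genes did not share 1 order of arrays. *Bglap1*, *Ibsp* and *Phex* were highest on WT replicate 2, and *Spp1* on WT replicate 3. *Cmah*-null replicate 3 was lowest for these 4 genes and highest for *Sp7*. *Mepe* was highest on *Cmah*-null replicate 2 and lowest on WT replicate 1. The mean log2 signal of the 6 detected genes was 11.07, 12.02 and 10.99 in WT and 11.10, 11.15 and 10.82 in *Cmah*-null mice, so WT replicate 2 stood above the other 5 arrays, which overlapped. The spread within groups was wide for most of them. The SD pooled over both groups was ranked against that of the probes detected on all 6 arrays. *Bglap1* stood at percentile 99.4, *Sp7* at 96.7, *Alpl* at 92.2, *Mepe* at 89.6, *Phex* at 85.9 and *Spp1* at 81.0, while *Ibsp* stood at 36.3.

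The median number of beads per probe split the arrays into a set with 32 to 34 beads (WT replicate 1 and *Cmah*-null replicates 1 and 2) and a set with 38 or 39 (WT replicates 2 and 3 and *Cmah*-null replicate 3). Within these sets the *Cmah*-null mean of *Bglap1* less its WT mean was -1.25 and -1.51 on the log2 scale. For *Spp1* it was 0.12 in the set with fewer beads and -1.49 in the other. *Mepe* went from 1.29 to -0.53, *Phex* from 0.53 to -1.06, *Sp7* from -0.37 to 0.77, *Alpl* from -0.78 to 0.79 and *Ibsp* from 0.028 to -0.32. Of the detected genes only *Bglap1* thus had the same direction in both sets, each of which holds a single array of one genotype and allows no test. With the bead number as a block, the log2 fold change was -1.38 for *Bglap1* and -0.69 for *Spp1*.

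Other genes of bone were taken from a list of 34, of which 30 were found and 21 were detected on all 6 arrays. At 1.5-fold with an unadjusted p under 0.05, 3 of the 30 were higher in *Cmah*-null mice and 1 was lower, where 1.30% and 1.41% of all probes were. In limma 0 passed an adjusted p under 0.05. By unadjusted p alone 5 of the 30 passed, where 8.56% of all probes did. Besides the 4 called genes these included *Postn*, which was detected on no array (log2 fold change -0.20). The median log2 fold change of the 30 genes was 0.0037. The 3 that were higher belong to signals and receptors. *Vdr*, the vitamin D receptor, gave 8.90, 9.60 and 9.59 in WT and 10.00, 10.05 and 10.96 in *Cmah*-null mice, a log2 fold change of 0.97 (SE 0.33, limma adjusted p 0.545). Every *Cmah*-null array was above every WT array, and the other *Vdr* probes had 0.88 and 0.59.

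*Bmp4*, a bone morphogenetic protein that starts osteoblast differentiation, gave 9.24, 9.40 and 9.14 in WT and 9.69, 9.73 and 10.77 in *Cmah*-null mice, a log2 fold change of 0.80 (SE 0.31, limma adjusted p 0.571). *Bmp7*, a ligand of the same family, gave 8.23, 8.20 and 8.40 in WT and 8.79, 8.70 and 9.47 in *Cmah*-null mice, with 0.71 (SE 0.22, limma adjusted p 0.514). For *Vdr*, *Bmp4* and *Bmp7* alike, *Cmah*-null replicate 3 was the highest array. Without that array only *Vdr* (0.66) of these 3 still passed 1.5-fold with p, while *Bmp4* and *Bmp7* had 0.45 and 0.47. Without WT replicate 1 none of the 3 passed, and without WT replicate 2 only *Vdr* did. By their brightest probes all 9 genes of this role had a log2 fold change above 0, with a median of 0.14, although 4 of them were detected on no array. Of these 4, *Bmp2* and *Ostn* were below 0 with median scaling (-0.035 and -0.13), and the other probes of *Pth1r*, the receptor of parathyroid hormone, had -0.13 and -0.30. These receptors and ligands also act outside bone, in skin, cartilage and nerve.

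The gene that was lower, *Enpp1*, makes the pyrophosphate that alkaline phosphatase removes. It gave 9.43, 9.52 and 9.15 in WT and 8.98, 9.04 and 8.29 in *Cmah*-null mice, a log2 fold change of -0.60 (SE 0.23, limma adjusted p 0.571). The groups did not overlap, but a second *Enpp1* probe had a log2 fold change of 0.0079. The first no longer passed with median scaling (-0.30) or without *Cmah*-null replicate 3 (-0.36), WT replicate 1 (-0.56) or WT replicate 2 (-0.52). It also did not pass with neqc normalization (-0.83, unadjusted p 0.051 in limma) or with an ordinary test per probe (p 0.087). In the phosphate and mineral role this was the 1 call among 5 genes found, and their median was -0.11.

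By their brightest probes, 9 of the 11 matrix genes on that list had a log2 fold change below 0, and 0 passed 1.5-fold with p. Their median was -0.33, or -0.060 with median scaling, where that of all probes detected on all arrays was 0.30. A dimmer *Ogn* probe did pass (-0.62, limma adjusted p 0.579), while the others of that gene had -0.53 and -0.67. A second *Sparc* probe had -1.34 without a call, against -0.19 for the brightest. Both genes were named after their values were seen. *Col1a2*, a chain of type I collagen, gave 11.90, 13.41 and 10.74 in WT and 9.96, 10.01 and 12.36 in *Cmah*-null mice, a log2 fold change of -1.24 (SE 0.92, limma adjusted p 0.741). Without *Cmah*-null replicate 3, the 1 high mutant array, it was -2.03 and passed 1.5-fold with p, and without WT replicate 2 it was -0.54. *Omd*, which encodes osteomodulin, a keratan sulfate proteoglycan of bone, gave 9.02, 10.50 and 10.31 in WT and 9.30, 8.86 and 8.77 in *Cmah*-null mice, with -0.97 (SE 0.41, limma adjusted p 0.601), or -1.43 and a call without WT replicate 1. *Col1a1*, named after its values were seen, gave 15.33, 14.19 and 10.91 in WT and 12.97, 12.95 and 13.52 in *Cmah*-null mice. For *Col1a1*, WT replicate 3 was the lowest of all arrays, while for osteocalcin and *Col1a2* it was the lowest WT array. The log2 fold change of *Col1a1* was -0.33 (SE 1.11, limma adjusted p 0.949), with -1.61 without WT replicate 3 and 0.59 without WT replicate 1. Without WT replicate 3, the calls on this list went from 4 to 6, adding *Col1a1*, *Sparc* and *Bglap2* and losing *Bmp4*. The 4 transcription factors found had a median of 0.065 with no call, and 2 of them were detected on no array.

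**Figure D3:**
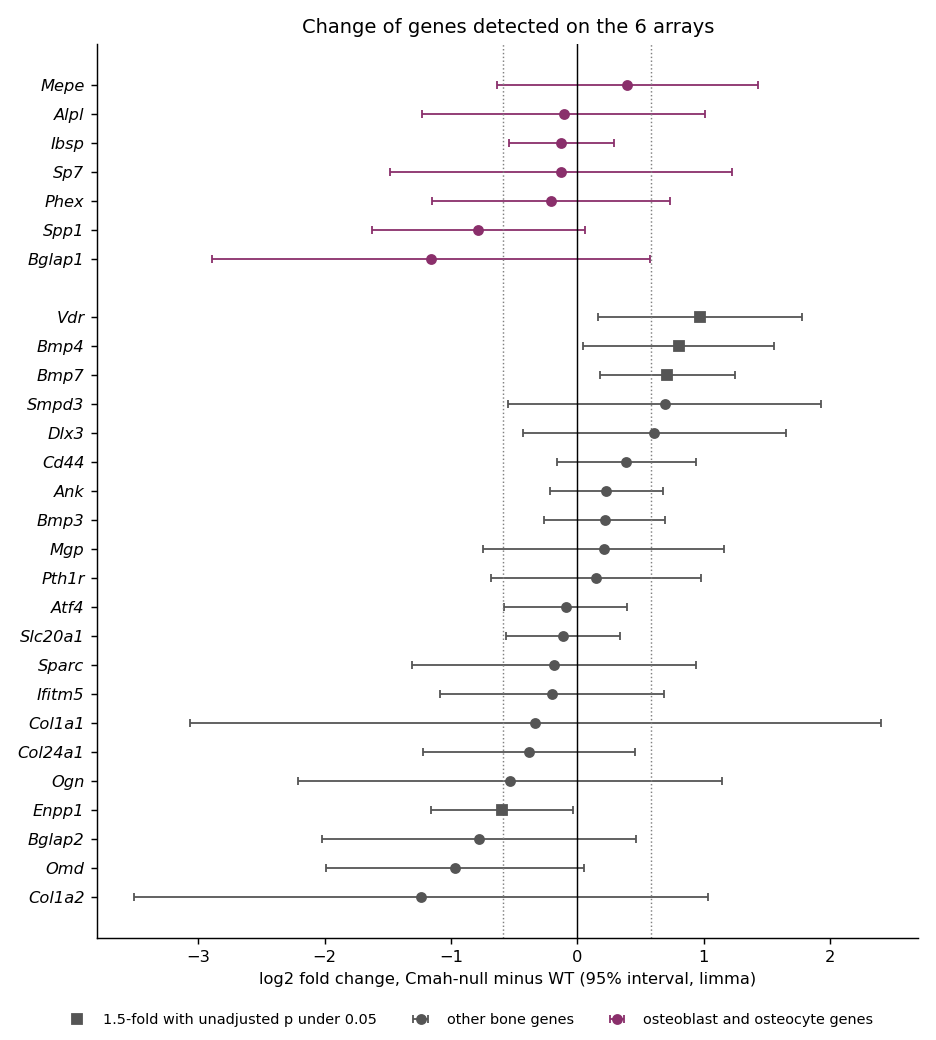
Log2 fold change (*Cmah*-null minus WT, points, with 95% intervals from limma) of bone genes detected on all 6 arrays, with the osteoblast and osteocyte genes in purple and other bone genes in grey, and dotted lines at 1.5-fold. The intervals of all 7 purple genes, *Alpl* included, cross 0, and the squares mark *Vdr*, *Bmp4*, *Bmp7* and *Enpp1*, which passed 1.5-fold with an unadjusted p under 0.05.

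Markers of the other cells around the cochlea were summed on each array, on the linear scale of the normalized signal. The bone list itself summed to 29342 to 54642 in WT and 18352 to 22409 in *Cmah*-null mice, without overlap. *Bglap1* and *Spp1* made up 59.3% to 84.0% of that sum. Without them the sums were 4856 to 9016 in WT and 5332 to 7465 in *Cmah*-null mice, and overlapped. Skeletal muscle markers summed to 235401, 253209 and 132175 in WT and 137110, 137226 and 159915 in *Cmah*-null mice, with WT replicates 1 and 2 high and WT replicate 3 lowest, which is also the WT order for osteocalcin. Of 5 brown fat markers, 3 (*Ucp1*, *Cidea* and *Cox8b*) were lower in *Cmah*-null mice at 1.5-fold with p, where 1.41% of all probes were. None of the 5 passed an adjusted p under 0.05 in limma. The brown fat list summed to 47752 to 64426 in WT and 7866 to 27728 in *Cmah*-null mice. The part of muscle and fat in the bone values was not tested.

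Erythroid markers summed to 87375 to 115225 in WT and 82949 to 91774 in *Cmah*-null mice, and neutrophil and marrow markers to 81128 to 110713 and 84559 to 98759. Most of each sum came from 1 gene with nearly the same log2 signal on every array, *Hba-a1* (15.99 to 16.04) and *Ltf* (15.92 to 15.99). The median log2 fold change was -0.11 for the erythroid list. For the neutrophil and marrow list it was 0.69, with 6 of 9 above 0 and 0 past 1.5-fold with p. The sums of these lists and of the skeletal muscle, fibroblast and osteoclast lists were highest on WT replicate 2, the array highest for *Bglap1*, *Ibsp* and *Phex*. Fibroblast markers summed to 38394 to 55212 in WT and 37422 to 50196 in *Cmah*-null mice. Osteoclast markers, of which 4 of 9 were detected on all arrays and 3 on none, summed to 10373 to 13588 and 9150 to 11350. Their protease gene *Ctsk* was lower at 1.5-fold with p, where 1.41% of all probes were. Its log2 fold change was -0.65 (limma adjusted p 0.555). With median scaling it was -0.15, where the median of all probes detected on all arrays was 0.30. Macrophage markers summed to 4194 to 6207 in WT and 4705 to 7938 in *Cmah*-null mice. Cartilage markers, of which 4 of 9 were detected on all arrays, summed to 6336 to 8172 and 9223 to 19871 with no overlap, highest on *Cmah*-null replicate 3, the array highest for *Sp7*, *Alpl* and *Bmp4*. Their median log2 fold change was 0.020, with 4 of 9 below 0. The 1 call at 1.5-fold with p was *Chad*, the chondroadherin gene (1.07, limma adjusted p 0.557), where 1.30% of all probes were higher. Without *Chad* the sums were 2806 to 3785 in WT and 2835 to 4268 in *Cmah*-null mice and overlapped. Cochlear markers summed to 12923 to 25726 in WT and 20816 to 21971 in *Cmah*-null mice. The part of each list in the bone values was not tested.

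**Figure D4:**
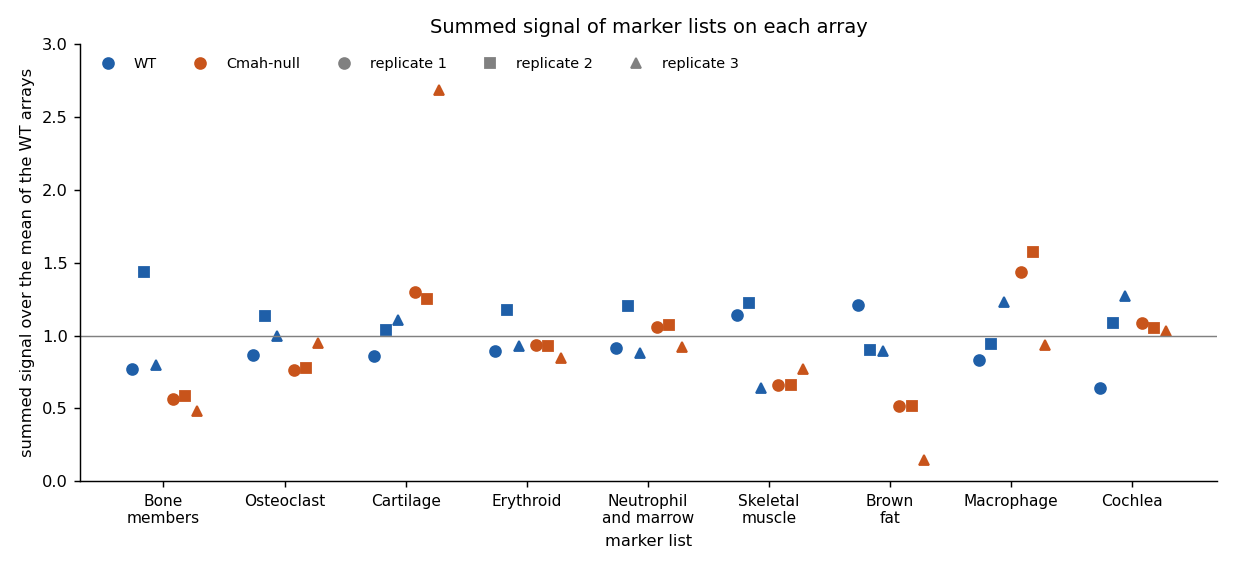
Summed linear signal of marker lists on each array, divided by the mean of the WT arrays for that list, with WT in blue, *Cmah*-null in orange and the replicate number by symbol. The bone list is highest on WT replicate 2, brown fat is lower on all *Cmah*-null arrays, and cartilage is highest on *Cmah*-null replicate 3.

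Genes outside all lists were ranked by the correlation of their log2 signal with the mean of the 6 detected bone genes over the 6 arrays. The closest were *Hist1h2ag* (Pearson r 0.998), *Cxcr4* (0.989), *Fcna* (0.988), *Ift140* (0.985) and *Hist1h2an* (0.981), and 63 of 12309 candidates had an r over 0.9. All 5 were highest on WT replicate 2, and the arrays share the near-alike *Cmah*-null pair described above.

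Osteocalcin is the textbook target of RUNX2, so the promoter is printed for *Bglap1*. It is the 250 bases before the start that RefSeq gives for *Bglap*, on the minus strand at chr3:88384467-88384716 of GRCm38.p6, and capitals mark the Runx core motif, searched as TGTGGT on one strand or ACCACA on the other.
*Bglap1* promoter: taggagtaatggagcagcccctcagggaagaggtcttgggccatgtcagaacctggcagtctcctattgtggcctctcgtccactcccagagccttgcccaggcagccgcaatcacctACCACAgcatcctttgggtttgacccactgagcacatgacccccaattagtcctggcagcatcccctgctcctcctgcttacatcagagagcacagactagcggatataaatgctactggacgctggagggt
The motif was in 5 of the 10 such windows of the genes found by symbol, those of *Bglap1*, *Dmp1*, *Mepe*, *Spp1* and *Runx2* itself, with no window for *Sp7* in the table, and in neither window of *Alpl*. Over all genes 14.0% of 32851 windows held it. Of the detected genes with the motif, *Bglap1* had a log2 fold change of -1.16, *Spp1* of -0.79 and *Mepe* of 0.40, and those without it, *Ibsp*, *Phex* and *Alpl*, had -0.13, -0.21 and -0.11. A match describes the letters only.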

How the data were processed

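The osteoblast and osteocyte genes and all gene lists were chosen with earlier results of these data known, and 1 gene of the other bone list is not reported here. Per the file headers, the deposited raw table holds an unnormalized intensity for each probe (mean over its beads), a bead standard error, a bead number and a detection p-value. The authors quantile-normalized these into log2 values, which equalled log2 intensities quantile-normalized here to within 5.0e-07. Another 12 columns per sample of the normalized table and 6 of the raw table were not used, nor were 5 columns of the authors' own comparison (fold change, LPE statistic, p-values). The authors' log2 values were compared with limma 3.58.1 (lmFit, eBayes, two-sided, no covariate) in R 4.3.3, with Benjamini-Hochberg adjustment over all 25697 probes, and the fit was tested on simulated data. The number of arrays limits the precision. The brightest probe stood for its gene, and a probe was called detected at a detection p under 0.05. Named were all bone genes of the list, other bone genes past 1.5-fold with p, the 3 with the largest rise and fall among those detected on all arrays, and the 5 nearest patterns. Alternatives were neqc (offset 16), quantile values made here, median scaling, detection on at least 3 arrays, a block for the replicate number or the bead number, leaving out each array, a trend and robust prior, an ordinary test per probe, averaging *Cmah*-null replicates 1 and 2, and other probes per gene. Adding *Alpl* by gene ID and keeping only genes detected on all arrays were chosen after seeing the data. Sequences came from the deposited annotation and, for promoters, RefSeq (GRCm38.p6). Plots were made in Python 3.11.15 with matplotlib 3.10.9.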

Additional observations from a re-analysis of the deposited data

How the results depend on the processing

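No bone gene passed an adjusted p under 0.05 in limma in 17 alternatives, and their smallest adjusted p over these was 0.224. The count at 1.5-fold with p went from 0 to 1 with the replicate block (*Bglap1*, adjusted p 0.599 in limma) and was 0 to 1 when an array was left out, with *Spp1* called without WT replicate 1 and *Bglap1* without WT replicate 3. The count of genes whose groups did not overlap was then 0 to 2, with *Spp1* without WT replicate 1, *Bglap1* and *Sost* without WT replicate 3, and *Sp7* and *Sost* without *Cmah*-null replicate 3. *Sost* was detected on no array. Groups separate more easily with an array left out, and the share over all probes was not counted for these settings. The median of the 9 genes stayed between -0.24 and 0.08 in 19 alternatives. Other bone genes called went from 4 to 1 with an ordinary test per probe, and were 1 to 6 when an array was left out, with 1 without WT replicate 1 (*Omd*) or 2 (*Vdr*), 6 without WT replicate 3 and 2 without *Cmah*-null replicate 3. Their median stayed between -0.10 and 0.07. Median scaling turned *Ibsp* to 0.34, *Sp7* to 0.37, *Phex* to 0.15, *Alpl* to 0.34 and *Col1a1* to 0.17. *Dmp1* was detected on 2 arrays only, so its sign is not a measured direction. The bead block turned *Sp7* to 0.20, *Dmp1* to 0.093 and *Alpl* to 0.0054, and averaging *Cmah*-null replicates 1 and 2 gave 0.13, 0.045 and 0.081. Leaving out an array gave -1.93 to -0.57 for *Bglap1*, -0.24 to 0.029 for *Ibsp*, -0.65 to 0.27 for *Sp7*, -0.15 to 0.085 for *Dmp1*, -0.42 to 0.11 for *Phex*, -1.15 to -0.57 for *Spp1*, 0.11 to 0.76 for *Mepe*, -0.48 to 0.17 for *Alpl* and -1.61 to 0.59 for *Col1a1*. The cause of these changes was not tested. Deviations from the group means showed little correlation between samples of the same number (0.02, -0.17 and 0.01). With so few arrays, and *Cmah*-null replicates 1 and 2 nearly alike, this cannot show whether the numbers pair the samples. The block is given as an alternative only. Signals of *Runx2* and *Sost* did not exceed background, so a difference in them could not be detected here.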
